A study of Mus musculus with 10 samples.

Results

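DNA methylation at 6 genes of fatty acid synthesis and desaturation, Fads1, Fads2, Fads3, Scd1, Scd2 and Fasn, was read out in mouse brain under 3 diets. The members were chosen by position. All non-control probes in 3 windows of the mouse build mm9 were taken, which are the Fads window on chromosome 19 (10110000 to 10285000), the Scd window on chromosome 19 (44360000 to 44490000) and the Fasn window on chromosome 11 (120660000 to 120695000). This gave 35 of the 88411 probes with a position, and they fell into 5 of the 13835 regions of the array, where a region is a run of at least 3 probes whose starts lie at most 500 bp apart. The Fads window held 24 probes in 4 clusters, the Fasn window held 11 probes in 1 cluster, and the Scd window held 0 probes. The nearest probes lay 967 bp below and 95906 bp above the Scd window, so Scd1 and Scd2 were not analysed here, and 4 of the 6 genes have values.

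Methylated DNA was immunoprecipitated from 10 samples of left hemibrain and hybridised together with the input DNA of the same sample to a 2-colour array of mouse CpG islands (MeDIP-chip). All samples came from male C57BL/6j mice that received their diet for 24 weeks from an age of 3 weeks. The enriched diet (ERD, 4 arrays) had n-3 and n-6 polyunsaturated fatty acids in the ratio 7:1, the balanced diet (BLD, 3 arrays) of 1:1 and the standard diet (STD, 3 arrays) of 1:6, and the study asked whether this ratio goes with the methylation pattern. All diets were designed to hold the same calories, the labels name no drug or transgene for any group, and the titles of all groups end in the word CONTROL. The labels do not say that the samples are separate animals, so the p-values speak only to the spread between the samples at hand, which may be technical.

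Fasn encodes fatty acid synthase, which builds palmitate. The stearoyl-CoA desaturases Scd1 and Scd2 place the first double bond into saturated fatty acids. Fads2 and Fads1, the delta-6 and delta-5 desaturases, alternate with elongases to turn the dietary n-6 and n-3 precursors into arachidonic acid, eicosapentaenoic acid and, further on, docosahexaenoic acid, which is abundant in brain membranes. Fads3 is a related desaturase that acts on sphingoid bases. In cell culture and liver, polyunsaturated fatty acids are known to lower the transcription of several of these genes. This acts in part through SREBP-1, a transcription factor that binds sterol response elements in promoters.

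The 250 bases before the start of transcription are shown for the members with a RefSeq promoter, because the array measures methylation of CpG sites at such islands. Of the 6 genes, 3 matched. The sequences are RefSeq's on GRCm38.p6, 5′ to 3′ on the strand of the gene, with each CpG in capitals. Fads3 lies at chr19:10041298-10041547 on the plus strand, Fads2 at chr19:10101504-10101753 on the minus strand and Fasn at chr11:120824548-120824797 on the minus strand. These positions are on another build than the probes and were not converted.
Fads3 promoter: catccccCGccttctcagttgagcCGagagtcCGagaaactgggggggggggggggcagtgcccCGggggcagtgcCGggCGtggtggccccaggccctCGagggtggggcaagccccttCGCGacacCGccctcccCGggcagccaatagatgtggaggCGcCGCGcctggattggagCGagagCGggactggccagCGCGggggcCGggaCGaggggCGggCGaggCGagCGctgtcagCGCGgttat
Fads2 promoter: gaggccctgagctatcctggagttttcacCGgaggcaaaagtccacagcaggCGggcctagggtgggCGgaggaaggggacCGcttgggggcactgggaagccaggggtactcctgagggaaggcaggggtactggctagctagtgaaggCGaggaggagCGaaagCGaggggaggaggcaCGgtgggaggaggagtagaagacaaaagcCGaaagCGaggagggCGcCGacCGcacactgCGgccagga
Fasn promoter: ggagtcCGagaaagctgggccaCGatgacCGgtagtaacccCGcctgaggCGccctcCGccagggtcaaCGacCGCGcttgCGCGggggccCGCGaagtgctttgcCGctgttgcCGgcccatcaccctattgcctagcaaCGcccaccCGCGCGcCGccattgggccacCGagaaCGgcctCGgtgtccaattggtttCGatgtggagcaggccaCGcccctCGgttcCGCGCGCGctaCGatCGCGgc
The Fads3 promoter held 26 CpG sites, more than 90.4% of 32851 RefSeq promoters of the same length. The Fads2 promoter held 14, more than 70.6%, and the Fasn promoter held 33, more than 96.0%, against a median of 6 over all promoters. The letters CCAAT, searched on both strands, occurred 2 times in the Fads3 promoter, 3 times in the Fasn promoter and 0 times in the Fads2 promoter, and 33.9% of all promoters held them. The letters GGGCGG occurred 2 times at Fads3, 1 time at Fads2 and 0 times at Fasn, against 32.7% of all promoters with a match. CACGTG, the letters of an E-box, which 6.02% of promoters held, and CACCCCAC, from a sterol response element, which 2.58% held, had 0 matches in these 3 windows. No match overlapped that of another of these motifs, but 2 of the 3 CCAAT matches at Fasn lie on opposite strands of 1 stretch and share bases.

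The files pair no probe with a gene, so the 4 clusters of the Fads window were named by the order and spacing of the genes. The RefSeq order along chromosome 19 is Fads3, Fads2, Fads1, Fen1 and Tmem258. Between the middles of neighbouring clusters the distances were 60.2, 81.3 and 20.8 kb on mm9, and on GRCm38 the starts of Fads3, Fads2 and Fads1 were 60.0 and 81.4 kb apart, with the gap between Fen1 and Tmem258 a further 21.4 kb on. The clusters are therefore called Fads3 (10115651 to 10116563, 8 probes over 913 bp), Fads2 (10175771 to 10176830, 7 probes over 1060 bp) and Fads1 (10257264 to 10257960, 6 probes over 697 bp). The fourth cluster (10278171 to 10278552, 3 probes over 382 bp) lies in the window but by the same order at Fen1 or Tmem258, which are no desaturases, and without it 32 member probes remain. The Fasn cluster spans 120684796 to 120686365 on chromosome 11, 11 probes over 1570 bp. No annotation on mm9 was used, so whether a probe lies in an exon, an intron or a UTR is not given.

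Values are the log2 ratio of Cy5 (immunoprecipitated DNA) over Cy3 (input DNA), with 0 set at the median probe of each array, and a cluster's value is the mean of its probes. A low value means little methylated DNA relative to the array's other probes, plus any probe or dye effect that all arrays share, since the dyes were never swapped. The interquartile range of the probe values was 0.71 ± 0.08 for ERD (SD, n = 4), 0.61 ± 0.20 for BLD (n = 3) and 0.47 ± 0.08 for STD (n = 3). The mean spread thus differed between the diets, but the arrays did not divide by diet. BLD replicates 1 and 2, on slide 3, had 0.74 and 0.71. BLD replicate 3, on slide 4, had 0.38, as did STD replicate 3 on slide 5. Correlations between arrays over all regions ran from r = 0.255 to 0.801. Of the member spots, 88.6% to 91.4% were well above background in both channels on the ERD arrays, 82.9% to 88.6% on the BLD arrays, and 82.9%, 62.9% and 65.7% on the 3 STD arrays. The diets also lay on different slides, ERD on slides 1 and 2, BLD on slides 3 and 4 and STD on slides 4 and 5, so only slide 4 held 2 diets. The part of spread, signal and slide in the differences below was not tested beyond the values given with them.

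The synthase and the delta-5 desaturase had the lowest levels, and the other clusters lay near the middle of the array. The Fasn cluster averaged -0.45 over the 10 arrays and only 1.93% of all regions averaged lower. The Fads1 cluster averaged -0.43, with 2.39% of regions lower. Both were below the array median on 10 of 10 arrays, as were 2209 regions in all (16.0%), and 20.9% of regions with 6 to 11 probes. The Fads3 cluster averaged -0.16 (27.5% of regions lower), the fourth cluster -0.13 (33.6%) and the Fads2 cluster -0.06 (47.9%). The median region stood at -0.05. These ranks describe the ratios and were not tested, because a level holds the affinity of its own probes.

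**Figure D1:**
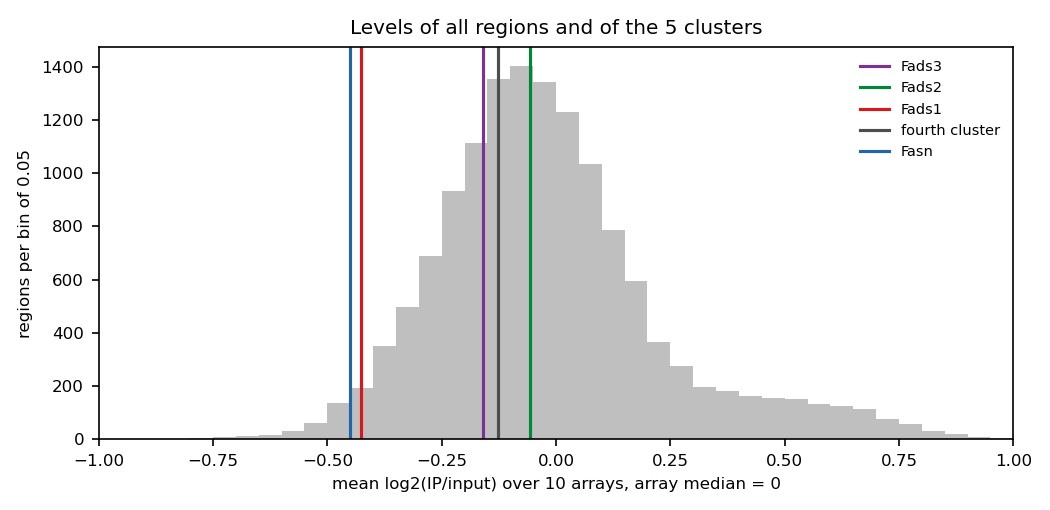
Number of regions (y axis, bins of 0.05) by their mean log2 ratio of immunoprecipitated over input DNA over 10 arrays (x axis), with a vertical line at each of the 5 clusters. The Fasn line (-0.45) and the Fads1 line (-0.43) stand in the lower tail, and the lines of Fads3, the fourth cluster and Fads2 stand between -0.16 and -0.06.

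No member cluster passed the test in any comparison of diets. With limma and Benjamini-Hochberg adjustment over all regions, 0 of 5 clusters were called between ERD and STD, between BLD and STD, between ERD and BLD, or along the slope on the log2 n-3:n-6 ratio. Over all regions the same rule called 0% in each pairwise comparison and 0.0434% (6 regions) for the slope. At an unadjusted p under 0.05 there were again 0 of 5 clusters in each, while 15.7% of all regions were there for ERD against STD, 11.2% for BLD against STD, 10.2% for ERD against BLD and 15% for the slope. The arrays of the diets overlapped in all 5 clusters in each pairwise comparison, while they did not overlap in 16.2%, 17.4% and 10.1% of all regions.

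Fasn, the synthase, had nearly the same mean on all 3 diets. Its values were -0.38, -0.53, -0.39 and -0.44 on the ERD arrays, -0.60, -0.65 and -0.22 on the BLD arrays and -0.14, -0.77 and -0.38 on the STD arrays. The 2 extremes of all 10 arrays were both STD, and the ERD arrays lay closest together. The mean was -0.44 ± 0.07 for ERD (SD, n = 4), -0.49 ± 0.23 for BLD (n = 3) and -0.43 ± 0.32 for STD (n = 3). The limma difference of ERD from STD was -0.004 ± 0.15 (SE) with a 95% interval from -0.32 to 0.32 and adjusted p = 0.992, and that of BLD from STD was -0.06 ± 0.16 with an interval from -0.40 to 0.28 and adjusted p = 0.897. Any difference within these intervals is not excluded by these arrays.

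Within the Fasn cluster the probe means over the 10 arrays ran from -1.33 to 0.27, and 5 of 11 probes were below the array median on every array. Each level holds the affinity of its own probe, so this range says nothing of methylation along the cluster. The lowest was the probe at 120686207, which read -1.29, -1.87, -1.40 and -1.35 in ERD, -1.54, -1.14 and -0.97 in BLD and -1.02, -1.55 and -1.21 in STD. It was low on all 10 arrays and the diets overlapped. Of the 11 probes, 0 had an unadjusted p under 0.05 between ERD and STD or between BLD and STD, against 15% and 10.5% of all probes, and 2 had one between ERD and BLD, against 11.7%.

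The delta-5 desaturase gene Fads1 had lower means on both n-3-richer diets than on the standard diet, by less than the spread of the arrays could separate. The Fads1 cluster read -0.40, -0.28, -0.73 and -0.56 in ERD, -0.76, -0.62 and -0.26 in BLD and -0.42, -0.16 and -0.09 in STD. The 2 highest of the 10 values were STD, while the third STD array lay among those of the other diets. The mean was -0.49 ± 0.19 for ERD (SD, n = 4), -0.55 ± 0.25 for BLD (n = 3) and -0.22 ± 0.17 for STD (n = 3). ERD differed from STD by -0.27 ± 0.14 (SE; 95% interval -0.58 to 0.04, limma, adjusted p = 0.376), and BLD from STD by -0.32 ± 0.15 (-0.66 to 0.01, adjusted p = 0.451). With normexp background correction both differences changed sign, to 0.15 and 0.18, and on slide 4, the only slide with 2 diets, the BLD array lay 0.15 above the STD array. In the other clusters the BLD array of that slide lay below the STD array. The differences were -0.32 for Fads3, -0.12 for Fads2, -0.14 for the fourth cluster and -0.08 for Fasn, from a single array of each diet. For Fads1, ERD and BLD differed by 0.05 ± 0.14 (-0.26 to 0.37, limma, adjusted p = 0.933).

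The Fads1 differences sat in single probes. The probe at 10257741 read -1.44, -0.64, -1.67 and -1.14 in ERD, -1.31, -1.76 and -0.46 in BLD and -0.78, -0.39 and 0.01 in STD. The lowest 5 values were ERD or BLD, but the ranges overlapped. ERD was lower than STD by -0.84 ± 0.33 (limma, adjusted p = 0.269) and BLD by -0.79 ± 0.35 (adjusted p = 0.472), neither past the adjusted threshold. Its neighbour at 10257815 differed by -0.63 ± 0.27 between ERD and STD (adjusted p = 0.299) and by -0.17 ± 0.29 between BLD and STD (adjusted p = 0.839).

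A further Fads1 probe, at 10257504, stood out in the balanced diet. It read 0.71, 0.25, 0.26 and 0.15 in ERD, 0.13, 0.00 and 0.13 in STD, and -1.26 and -0.97 on 2 BLD arrays, while its spot on the third BLD array was flagged as an outlier and left out. The 2 BLD values lay below all others. ERD exceeded BLD by 1.46 ± 0.22 (limma, adjusted p = 0.379) and BLD lay below STD by -1.20 ± 0.23 (adjusted p = 0.463). With the flagged spot kept, the third BLD array read -0.22 and the differences were 1.16 ± 0.25 (adjusted p = 0.383) and -0.90 ± 0.26 (adjusted p = 0.472). Both channels were dimmer there. The Cy5 intensity was 493, 974 and 2003 on the BLD arrays against 3043 to 9159 on the others, and the Cy3 intensity was 1204, 1984 and 2316 against 2634 to 7664. The part of this in the ratio was not tested.

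Fads2, the delta-6 desaturase that takes the first step on the dietary precursors, had cluster means that depended on which probes were kept. Over all 7 probes the values were 0.15, -0.10, -0.29 and -0.04 in ERD, 0.03, 0.02 and -0.20 in BLD and -0.07, -0.07 and 0.02 in STD. The STD arrays lay inside the range of ERD and of BLD. ERD differed from STD by -0.03 ± 0.11 (SE; 95% interval -0.27 to 0.21, adjusted p = 0.914 in limma) and BLD from STD by -0.01 ± 0.12 (-0.27 to 0.25, adjusted p = 0.986). These differences became 0.094 and 0.017 with normexp background correction, 0.059 and 0.14 with regions cut at gaps over 300 bp, and -0.32 and -0.43 on probes well above background in both channels.

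The Fads2 mean combined probes of opposite sign. The first Fads2 probe, at 10175771, read -0.15, -0.35, -0.10 and -0.32 in ERD, -0.61, -0.74 and -0.36 in BLD and 0.77, 0.06 and -0.02 in STD. All ERD and BLD values lay below all STD values. BLD was lower than STD by -0.84 ± 0.23 (limma, adjusted p = 0.463) and ERD by -0.50 ± 0.22 (adjusted p = 0.308). The last probe, at 10176771, went the other way, at 1.43, -0.36, 0.77 and 1.27 in ERD, 1.69, 1.73 and 0.09 in BLD and -0.27, -0.01 and 0.10 in STD. It was well above background in both channels on 0 of 10 arrays, so its ratio rests on dim spots. The spread across the diets of the 5 probes between them is shown in the plot of probe values along each cluster.

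Fads3, the desaturase of sphingoid bases, showed 1 STD array apart from the rest. The cluster read -0.08, -0.29, -0.23 and -0.16 in ERD, -0.29, -0.23 and -0.10 in BLD and 0.23, -0.36 and -0.10 in STD. The highest and the lowest of the 10 values were both STD, and the other diets lay between them. The difference of ERD from STD was -0.11 ± 0.13 (SE; 95% interval -0.39 to 0.17, adjusted p = 0.692 in limma) and that of BLD from STD was -0.13 ± 0.14 (-0.42 to 0.17, adjusted p = 0.711). Without STD replicate 1 both turned to 0.04 and 0.03. Its probe at 10115928 read -1.05, -0.45, -1.10 and -0.70 in ERD, -0.45, -0.37 and 0.06 in BLD and -0.29, -0.10 and 0.01 in STD. All ERD values lay below those of the other diets, by a narrow margin to BLD. ERD differed from STD by -0.70 ± 0.21 (limma, adjusted p = 0.184), and the slope was -0.13 per doubling of the n-3:n-6 ratio (adjusted p = 0.166).

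The fourth cluster, by its order no desaturase, read -0.07, -0.32, 0.07 and -0.06 in ERD, -0.02, 0.13 and -0.37 in BLD and -0.23, -0.37 and -0.02 in STD. The diets overlapped. ERD differed from STD by 0.11 ± 0.14 (adjusted p = 0.705 in limma) and BLD from STD by 0.12 ± 0.15 (adjusted p = 0.755).

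Between the enriched and the balanced diet the remaining cluster differences were small beside their errors. ERD minus BLD was 0.05 ± 0.15 (SE) for Fasn, -0.02 ± 0.11 for Fads2, 0.02 ± 0.13 for Fads3 and -0.005 ± 0.14 for the fourth cluster, with adjusted p from limma of 0.933, 0.968, 0.980 and 0.995. Per doubling of the n-3:n-6 ratio the Fads1 cluster had the steepest slope, at -0.05 ± 0.03 (SE; limma, adjusted p = 0.445). The slopes were -0.02 ± 0.02 for Fads3 (adjusted p = 0.722), 0.02 ± 0.02 for the fourth cluster (adjusted p = 0.731), -0.0055 ± 0.02 for Fads2 (adjusted p = 0.916) and 0.00051 ± 0.03 for Fasn (adjusted p = 0.994).

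**Figure D2:**
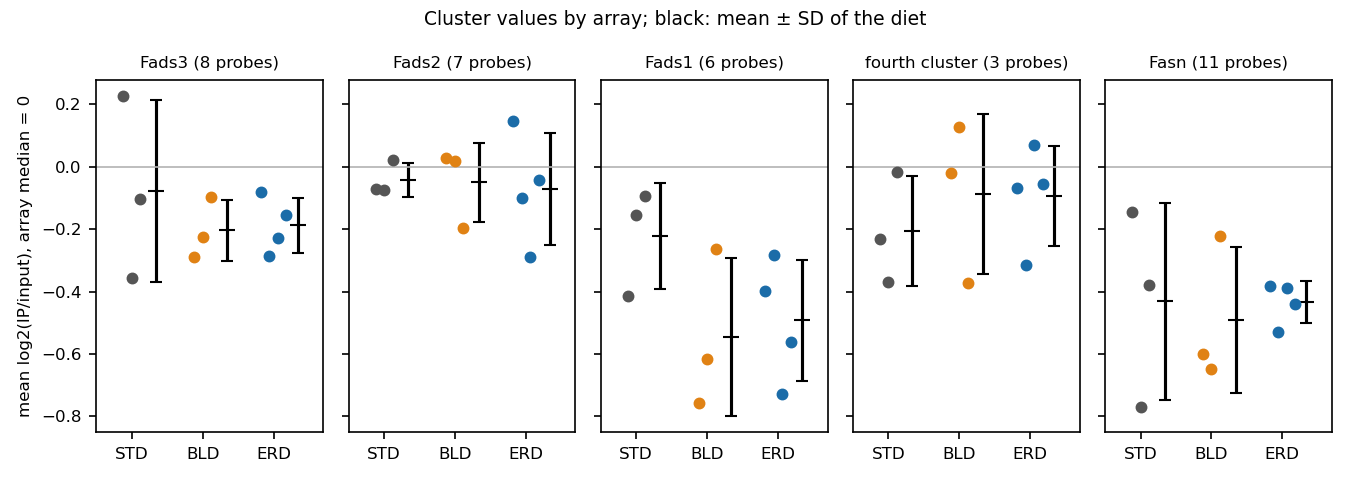
Mean log2 ratio of immunoprecipitated over input DNA of each cluster (y axis, array median at 0) for every array, by diet (x axis), with the mean ± SD of the diet in black (ERD n = 4, BLD and STD n = 3 each). Arrays of the diets overlap in all 5 clusters, Fasn and Fads1 lie below 0 on all 10 arrays, and the STD arrays of Fads3 and Fasn span the widest range.

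Single member probes were counted beside the share over all probes, with no test of the counts, since the probes of a cluster lie close together. Between ERD and STD 5 of 35 member probes had an unadjusted p under 0.05, 1 higher in ERD and 4 lower, against 15% of all probes (6.52% higher and 8.52% lower). Between BLD and STD there were also 5, 1 higher in BLD and 4 lower, against 10.5% (6.2% higher and 4.33% lower). Between ERD and BLD there were 7, 5 higher in ERD and 2 lower, against 11.7% (5.54% higher and 6.14% lower). Shares of the 35 were 14.3%, 14.3% and 20%. The arrays of the diets did not overlap for 6, 5 and 6 member probes in these comparisons, against 16.6%, 16.7% and 11.6% of all probes. After adjustment over all probes limma called 0 member probes and 0% of all probes in each comparison.

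The other member probes with an unadjusted p under 0.05 lay in Fads3, Fads2, Fasn and the fourth cluster. For Fads3, BLD was lower than STD at 10116312 by -0.76 ± 0.32 (limma adjusted p = 0.466), and ERD exceeded BLD at 10115784 by 0.82 ± 0.33 (adjusted p = 0.402) while it was lower at 10115928 by -0.57 ± 0.21 (adjusted p = 0.386). For Fads2, ERD exceeded BLD at 10176095 by 0.54 ± 0.21 (adjusted p = 0.394), with the spot of 1 STD array left out as an outlier, and BLD exceeded STD at the dim probe 10176771 by 1.23 ± 0.49 (adjusted p = 0.463). The Fads2 probe at 10176647 had a slope of -0.12 ± 0.05 (adjusted p = 0.328). In the fourth cluster ERD exceeded STD at 10278171 by 0.65 ± 0.22 (adjusted p = 0.210) and BLD by 0.50 ± 0.22 (adjusted p = 0.417). For Fasn, ERD exceeded BLD at 120684796 by 0.65 ± 0.23 (adjusted p = 0.380) and was lower at 120685971 by -0.73 ± 0.29 (adjusted p = 0.397). None of these values passed the adjusted threshold.

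**Figure D3:**
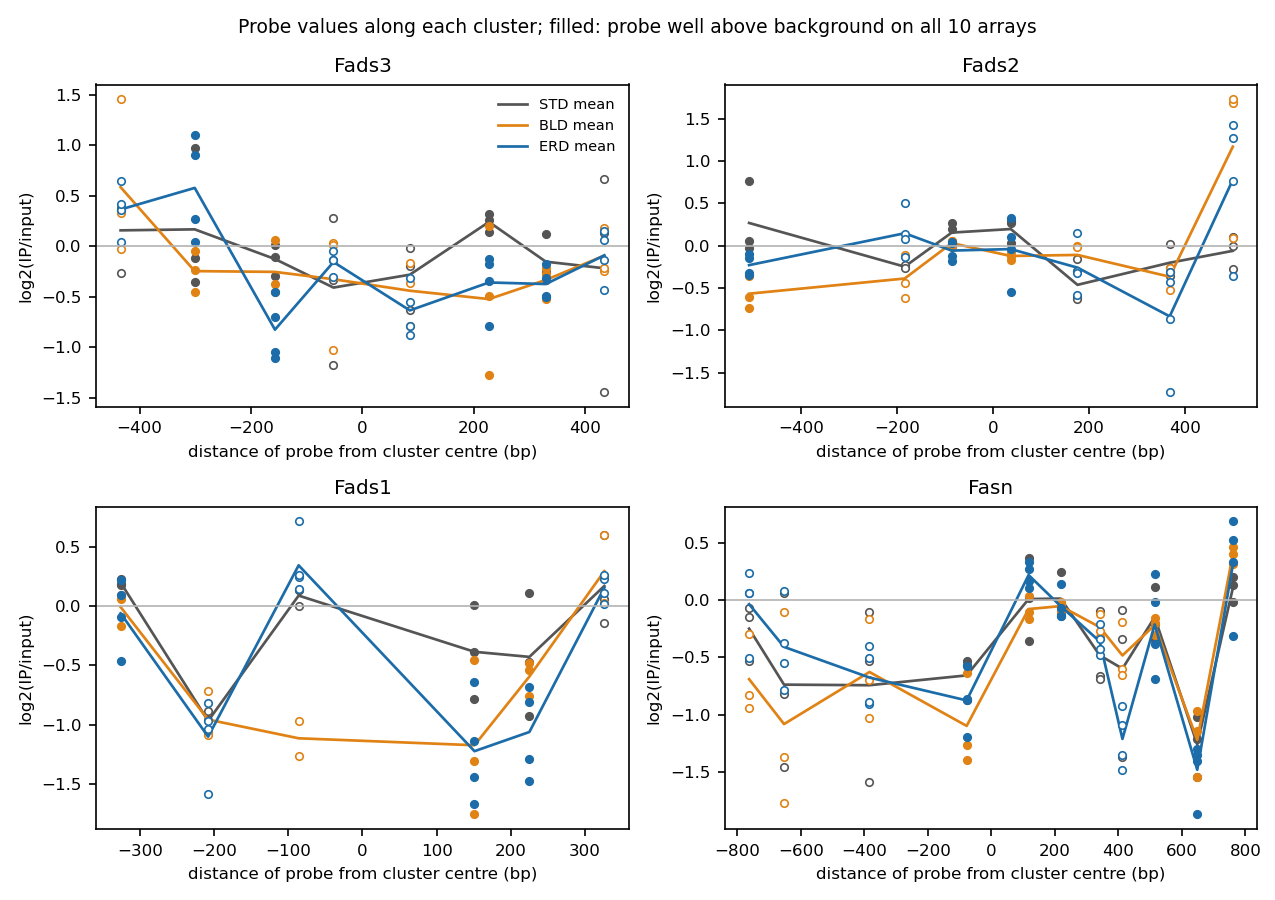
Log2 ratio of immunoprecipitated over input DNA (y axis) of each probe by its distance from the middle of the cluster (x axis, bp), with a point for each array, a line for the mean of each diet, and filled points for probes well above background in both channels on all 10 arrays. The STD line lies above both others at the first Fads2 probe, and at the third Fads1 probe the BLD line (-1.12) lies far below those of ERD (0.34) and STD (0.09).

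Many member probes were dim. Of the 35 member probes, 17 were well above background in both channels on all 10 arrays, of which 6 were in Fasn, 4 in Fads3, 3 in Fads2, 3 in Fads1 and 1 in the fourth cluster, which could then not be tested. The array as a whole had 9095 regions of at least 3 such probes. This filter reads the Cy5 signal, the numerator of the ratio, so it selects on the value compared. The Fads2 probes at 10176095 and 10176455, for example, had input well above background on 10 arrays but immunoprecipitated DNA on 9 and 7, and both were dropped. Fads2 on its 3 bright probes read -0.10, -0.07, -0.20 and -0.07 in ERD, -0.21, -0.29 and -0.16 in BLD and 0.27, 0.21 and 0.15 in STD. The STD arrays did not overlap those of ERD or of BLD on these 3 probes. ERD was lower than STD by -0.32 ± 0.09 (SE; 95% interval -0.50 to -0.13, limma, adjusted p = 0.132) and BLD by -0.43 ± 0.09 (-0.62 to -0.23, adjusted p = 0.430). Neither passed the adjusted threshold. With a filter on the input channel alone, chosen after seeing the data, Fads2 kept 6 probes and read -0.07, -0.06, -0.46 and -0.26 in ERD, -0.25, -0.27 and -0.24 in BLD and -0.03, -0.09 and 0.01 in STD. The ERD and STD arrays then overlapped, while the BLD arrays still lay below those of STD. The differences from STD were -0.18 ± 0.11 in ERD (limma, adjusted p = 0.415) and -0.22 ± 0.12 in BLD (adjusted p = 0.445).

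Fads1 on its 3 probes that were bright in both channels read -0.84, -0.41, -1.20 and -0.68 in ERD, -0.75, -0.75 and -0.28 in BLD and -0.51, -0.21 and 0.10 in STD. The diets overlapped. On these 3 probes ERD was lower than STD by -0.58 ± 0.19 (limma, adjusted p = 0.171) and BLD by -0.39 ± 0.20 (adjusted p = 0.479). The input filter kept all 6 Fads1 probes, and with them the values given above for the whole cluster. Fads3 on 4 bright probes differed by -0.28 ± 0.13 in ERD (adjusted p = 0.296) and -0.37 ± 0.14 in BLD (adjusted p = 0.433). The input filter kept the same 4 Fads3 probes and so gave the same differences (limma, adjusted p = 0.306 and 0.395). Fasn on 6 bright probes differed by -0.03 ± 0.11 and -0.06 ± 0.12 (adjusted p = 0.915 and 0.868), with narrower intervals than on all probes.

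Of the 4 clusters left, 2 had an unadjusted p under 0.05 in ERD against STD (Fads2 and Fads1) and 2 in BLD against STD (Fads2 and Fads3), all lower than STD. Among all regions of bright probes 17.8% were there for ERD against STD (12.2% lower in ERD) and 11.2% for BLD against STD (9.5% lower in BLD). The arrays did not overlap for 1 cluster, Fads2, in both comparisons, against 17.3% and 16.2% of these regions, and limma called 0 of 4 clusters and 0% of the regions after adjustment. Both comparisons share the STD arrays. The filter reads the Cy5 signal, and the STD arrays had the fewest member spots well above background. The part of this filter in the counts was not tested, and these counts are no support for a difference between diets. The bright probes as a whole also shifted, with a median difference of BLD from STD of -0.06 against 0.03 over all regions, and 154 regions higher against 864 lower at an unadjusted p under 0.05, where all probes gave 1011 and 538. For ERD against STD the bright probes gave 502 higher and 1113 lower, where all probes gave 1063 and 1110. The filter on the input channel alone, which does not read Cy5, gave 176 higher and 1098 lower for BLD against STD. Its median difference there was -0.07, and for ERD against STD it gave 541 higher and 1246 lower. Centred on the bright probes alone, the split was 438 to 417 for BLD against STD and 664 to 966 for ERD against STD, and Fads2 differed by -0.29 in ERD (adjusted p = 0.124) and -0.36 in BLD (adjusted p = 0.528).

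**Figure D4:**
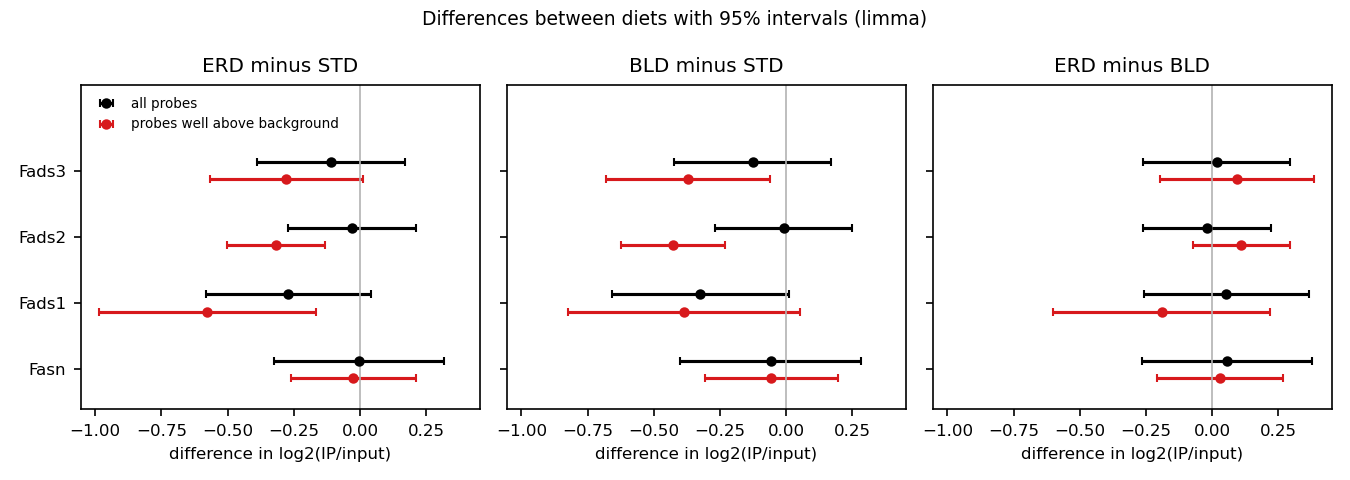
Differences between diets in the log2 ratio (x axis) with 95% intervals from limma for the Fads3, Fads2, Fads1 and Fasn clusters, over all probes (black) and over probes well above background on all 10 arrays (red). The black intervals all include 0. The red ones exclude it for Fads2 in both comparisons with STD, for Fads1 in ERD and for Fads3 in BLD, and no adjusted p-value passed 0.05. The filter behind the red values reads the Cy5 signal of the ratio itself, but for Fads3 the input channel alone selects the same 4 probes.

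Of the 10 pairs of clusters, Fads3 and Fasn, on different chromosomes, had the highest correlation across the arrays. Over the 10 arrays their values had Pearson's r = 0.858 (100000 permutations, p = 8.2e-04, adjusted over the 10 pairs of clusters p = 0.0082) and Spearman's rho = 0.867 (permutation p = 0.00224, adjusted p = 0.0224). The permutations treat the 10 arrays as exchangeable, although they differ in diet and slide. The part of an array or slide effect common to both clusters was not tested. Without STD replicates 1 and 2, the arrays farthest from the median of Fads3, r was 0.757. The arrays of a slide are too few for a value within it, and on 3 of 5 slides the array higher for Fads3 was also higher for Fasn. Of the other 13834 regions, 0.195% had as high an r with Fasn and 0.159% with Fads3. Of the other 9 pairs, the lowest permutation p was 0.0467, for Fads1 and the fourth cluster (r = -0.651, adjusted p = 0.233). Fads2 and the fourth cluster had r = 0.257 (permutation p = 0.474, adjusted p = 0.869), which became 0.860 without ERD replicates 1 and 3. With 10 arrays a pair that misses the threshold is not shown to vary separately.

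**Figure D5:**
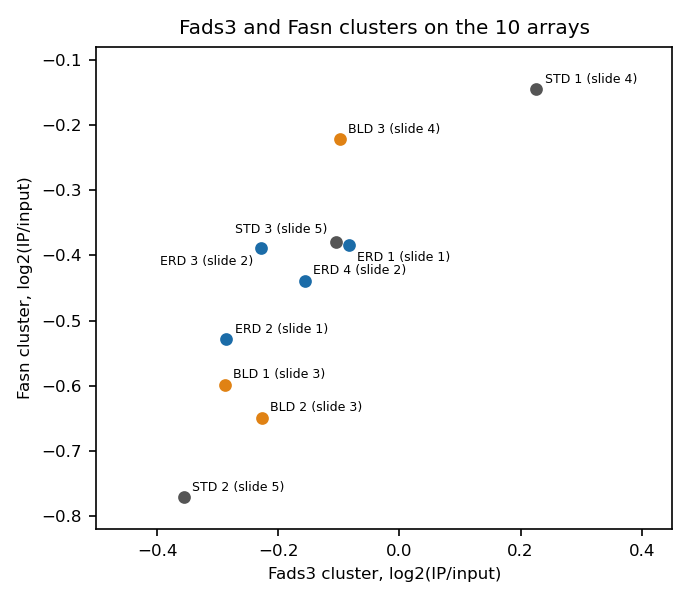
Log2 ratio of immunoprecipitated over input DNA of the Fasn cluster (y axis) against the Fads3 cluster (x axis), a point for each of the 10 arrays, coloured by diet and labelled with its slide. The points rise together (r = 0.858), with STD replicate 2 at the lower left and STD replicate 1 at the upper right.

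The regions on other chromosomes most like the largest cluster of each window were picked by Pearson's r over the 10 arrays, as a description. For Fads3 they were a region of 9 probes on chromosome 7 (74903601 to 74904867, r = 0.941) and a region of 3 probes on chromosome 4 (131858974 to 131859291, r = 0.918). For Fasn they were regions of 8 probes each on chromosome 14 (115491367 to 115492134, r = 0.930) and on chromosome 6 (86682659 to 86683649, r = 0.917). Other genes of fatty acid elongation and of the SREBP pathway were not analysed here, because no probe is paired with a gene name in the files.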

How the data were processed

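The deposited scanner files give, per the file headers, processed intensity per channel from Agilent Feature Extraction 10.7.3.1 (the submitters' processing notes name 9.0), already background-subtracted and dye-normalized by a linear factor. The deposited series table holds the log10 ratio of Cy5 over Cy3 of the same spots, rounded, with a largest difference of 0.00498 and no further centring. Other deposited columns are flags and positions on mm9. From these, log2 ratios of the processed signals were computed per probe. Outlier spots (0.0575% to 0.536% of an array) were dropped, each array was centred on its median and no loess was applied. All 13835 regions and all probes were fitted with limma 3.58.1 in R 4.3.3 (lmFit, eBayes) over 10 arrays, with p-values adjusted by Benjamini-Hochberg and called under 0.05. The script was tested on simulated data. Alternatives were normexp (offset 50), loess, quantile, scaling of arrays to one spread, the series table, dim or saturated spots dropped, slide as a random block, compared diets only, array weights, other gaps (300 and 1000 bp), probe medians, and each array left out. Outlier spots kept, centring on bright probes and a filter on the input channel alone were added after seeing the data.

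The members and lists were chosen with earlier results of these data known. Single probes were named by the lowest unadjusted p of their cluster in a comparison; other probes with an unadjusted p under 0.05, the Fads2 probe at 10176771 and the lowest Fasn probe at 120686207 were named after their values were seen. The rule for gene names asked for a probe sequence or an mm9 annotation. Neither was used here, so naming the Fads clusters by order and spacing departs from it. The number of arrays limits the precision.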

Additional observations from a re-analysis of the deposited data

How the results depend on the processing

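No member cluster passed the adjusted threshold under any alternative tried (lowest adjusted p 0.124 in limma). Of 303 recomputed cluster differences and slopes with all arrays in, 42 changed sign, and of 200 with 1 array left out, 30 did. The cause of the changes was not tested. Both totals include recomputations that could not change a difference. Fitting the compared diets only, or leaving out an array of the diet not compared, returns the same value. No paired analysis was possible because the labels give no replicate numbers that the diets share.

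Between ERD and STD, normexp turned Fads1 to 0.15 and Fads2 to 0.094, a 300 bp gap turned Fads2 to 0.059, and Fasn became 0.032 with array weights, 0.047 with loess, 0.18 with one spread, 0.075 with quantile normalization and 0.015 with the input filter. Between BLD and STD, normexp turned Fads1 to 0.18 and Fads2 to 0.017, Fads2 became 0.14 with a 300 bp gap, 0.0070 with array weights and 0.0045 with outlier spots kept, and Fasn became 0.0035 with a 300 bp gap, 0.098 with one spread and 0.011 centred on bright probes. Between ERD and BLD, Fads1 became -0.034 with normexp, -0.19 on bright probes and -0.23 centred on them. Fads2 became 0.034 with loess, 0.021 with probe medians, 0.077 with normexp, 0.024 with one spread, 0.053 with quantile, 0.11 on bright probes, 0.067 centred on them and 0.041 with the input filter. Fasn became -0.084 with a 300 bp gap and -0.014 centred on bright probes, and the fourth cluster 0.064 with loess, 0.090 with one spread and 0.095 with quantile.

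The slope turned for Fads1 to 0.025 with normexp, for Fads2 to 0.0086 with a 300 bp gap and 0.018 with normexp, and for Fasn to -0.016 with a 300 bp gap, -0.0081 with probe medians, -0.0022 with normexp, -0.0022 with the series table, -0.00017 with the slide block, -0.0039 on bright probes and -0.00098 centred on them.

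Member clusters at an unadjusted p under 0.05 were 0 as reported. With array weights there was 1 against STD in ERD, in BLD and for the slope. In BLD there was also 1 with probe medians, with quantile and with the input filter. On bright probes, however centred, these 3 comparisons had 2 each. In ERD and BLD the 1 cluster was Fads1, or Fads3 with the input filter. Of all regions, 18.5% in ERD and 18.7% in BLD were there with array weights. In BLD the share was 9.92% with probe medians, 14.2% with quantile and 12.4% with the input filter. On bright probes it was 17.8% in ERD and 11.2% in BLD, and 17.9% and 9.4% centred on them. Among the 17 bright member probes there were 5 in ERD against STD (29.4%, against 16.4% of all bright probes), 3 in BLD against STD (17.6% against 9.15%) and 3 in ERD against BLD (17.6% against 13.5%). These probes were selected in part on their Cy5 signal, and the part of that selection in the counts was not tested. Regions past the adjusted threshold numbered 8 with array weights, 1 with probe medians, 10 with quantile and 1 centred on bright probes for ERD against STD, and 2 with the compared diets only for BLD against STD. For the slope they were 0 with loess, normexp and the slide block, 1 with probe medians and one spread, 10 with quantile and 2 on bright probes, however centred, and with the input filter. Regions at an unadjusted p under 0.05 were 8.72% with normexp for ERD against STD, 3.59% with normexp and 18.7% with array weights for BLD against STD, 0.484% with normexp and 6.32% with one spread for ERD against BLD, and 8.98% with normexp for the slope.

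With each array left out in turn, ERD minus STD ran from -0.37 to -0.19 for Fads1, -0.10 to 0.043 for Fads2, -0.25 to 0.043 for Fads3 and -0.17 to 0.14 for Fasn. BLD minus STD ran from -0.46 to -0.22, -0.047 to 0.064, -0.27 to 0.026 and -0.23 to 0.085 in the same order, and ERD minus BLD from -0.052 to 0.19, -0.093 to 0.052, -0.025 to 0.070 and -0.025 to 0.19, with the fourth cluster from -0.15 to 0.10. Slopes ran from -0.019 to 0.0082 for Fads2, -0.039 to 0.0076 for Fads3 and -0.025 to 0.025 for Fasn. Member clusters at an unadjusted p under 0.05 were 0 to 1 against STD in ERD, in BLD and for the slope. Regions there ran from 8.62% to 16.2% for ERD against STD, 4.44% to 18.7% for BLD against STD, 6.52% to 12.5% for ERD against BLD and 8.46% to 17% for the slope, and those past the adjusted threshold from 0 to 1, 0 to 2, 0 to 0 and 0 to 5. Dim spots limit these clusters, since 18 of 35 member probes were not well above background on every array.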
